A study of Mus musculus with 6 samples.

Results

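Accessible chromatin was followed across the neighbouring cadherin genes Cdh3 and Cdh1 in NMuMG cells, an established line of normal murine mammary gland epithelial cells, wild type by its labels. The locus comprised every region in the 3 deposited ATAC-seq peak lists that overlapped the mm9 window chr8:109000000-109230000, which was chosen by position because it holds both genes. It contained 21 of the 42310 regions of cells given the vehicle DMSO, 15 of the 25922 regions after 6 h of BRM014 and 19 of the 38422 regions after 30 h. BRM014 is an inhibitor of SMARCA4 and SMARCA2, the ATPases of SWI/SNF chromatin remodellers. ATAC-seq marks open DNA through adapters inserted by the Tn5 transposase. The 6 samples formed 3 groups of 2 biological replicates, all from cells grown with serum and insulin. DMSO carries a time of 30 h in the name of its list, so the 6 h list had no vehicle of its own time. Each list pools the replicates of its group. Replicate values were thus not at hand, no test between treatments was made, and every interval given covers counting error only.

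Cdh1 encodes E-cadherin, the calcium-dependent adhesion protein that joins epithelial cells at adherens junctions and binds beta-catenin on its cytoplasmic side. Cdh3 encodes P-cadherin, a closely related adhesion protein that in the mammary gland is known mainly from the basal, myoepithelial layer. In cells that go through an epithelial to mesenchymal transition, Cdh1 is a classical gene to be switched off, and NMuMG cells are a common model of that transition. SWI/SNF complexes use ATP to move or evict nucleosomes, and many enhancers need them to stay accessible. In the RefSeq gene table of the build GRCm38.p6, Cdh3 and Cdh1 stand next to each other among the protein-coding genes of the chromosome, between Zfp90 on the Cdh3 side and Tango6 on the Cdh1 side. That table is of another build than the peak lists, so it was used for names and order only. No region was assigned to a promoter, exon, intron or to either gene, and no epithelial marker was looked up in the lists.

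The window was densely populated in DMSO. Its 21 regions amounted to 91.3 per Mb, against 16.5 per Mb over the whole DMSO list, and they covered 5.57% of the window, against 1.18% of the span of the whole list. The median distance between neighbours was 6460 bp in the window and 16347 bp in the whole list. The regions are numbered here from 1 to 21 along the chromosome. The longest stretch without a region, 30710 bp, lay between regions 3 and 4, and another of 26461 bp lay between regions 19 and 20. The shortest, 1387 bp, separated regions 6 and 7. After BRM014 the density was 65.2 per Mb at 6 h and 82.6 per Mb at 30 h, against 10.1 and 15.0 per Mb over the whole 6 h and 30 h lists.

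**Figure D1:**
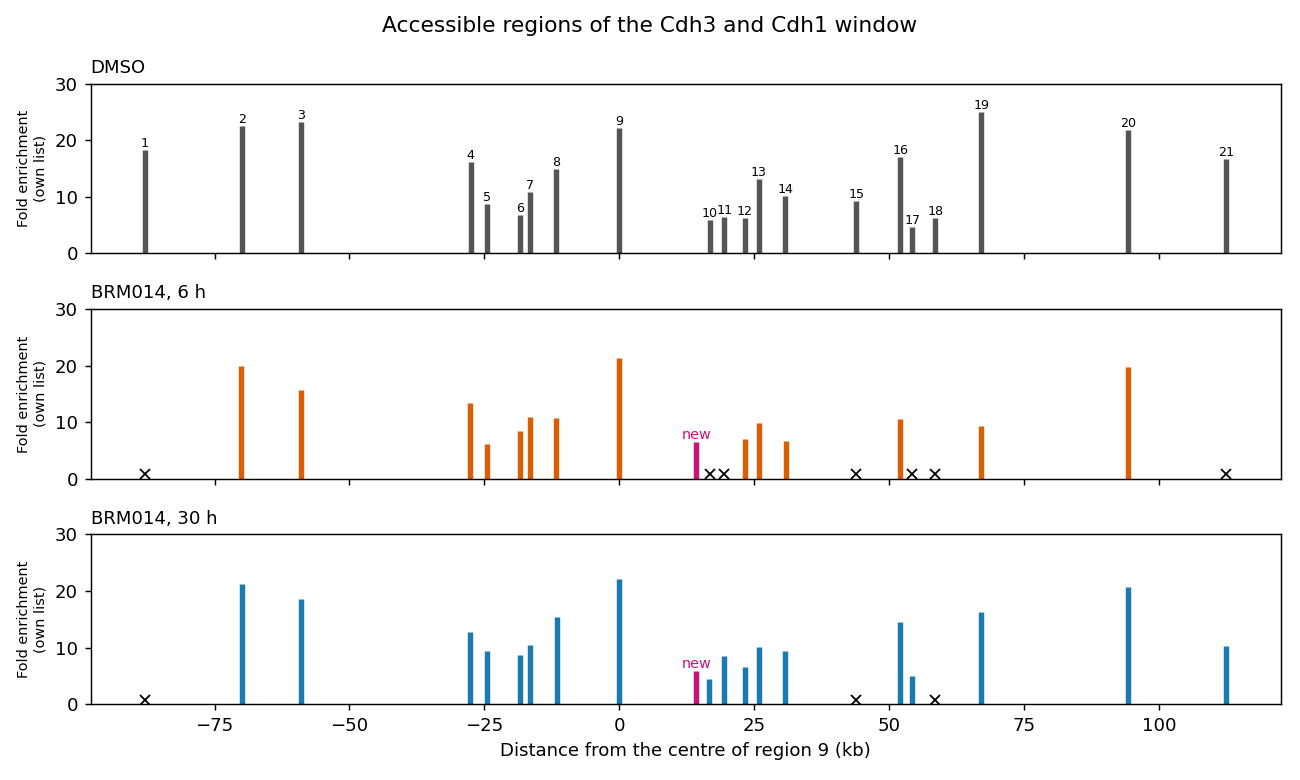
Accessible regions of the window in DMSO, after 6 h and after 30 h of BRM014 (top to bottom), at their distance in kb from the centre of region 9; the height of each line is the authors' fold enrichment within that list, and a cross marks a DMSO region that was not called. Regions 2, 9 and 20 stand high in all 3 lists, 7 crosses stand at 6 h and 3 at 30 h, and a new region marked in pink appears between regions 9 and 10 at both times.

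Individual regions were of ordinary enrichment and somewhat narrow. The value of column 7, the authors' fold enrichment of a summit over its surroundings, had a median of 13.1 in the window and 13.0 in the whole DMSO list. The median width was 590 bp in the window and 677 bp in the whole list, and 28.6% of the regions in the window had more than 1 summit, against 51.02% of the whole list. The authors' -log10 q ranked the window higher, with a median of 151 against 91.7. By fold enrichment 5 of the 21 regions stood above the 90th percentile of the DMSO list. They were region 19 at chr8:109179743-109180316, with 24.9, region 3 at chr8:109053687-109054294, with 23.2, region 2 at chr8:109042623-109043330, with 22.5, region 9 at chr8:109112412-109113481, with 22.2, and region 20 at chr8:109206778-109207617, with 21.7. Region 9 was the widest, at 1070 bp. It alone of the 21 stood above the 90th percentile by -log10 q, with 524. Region 20 had the most summits, 3.

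Of the 21 regions, 14 were still called after 6 h of BRM014 and 7 were missing, 33.3% (95% Wilson interval 17.2 to 54.6%), beside 43.6% of the whole DMSO list. After 30 h, 3 were missing, 14.3% (4.98 to 34.6%), beside 26.1%. In all, 14 of 21 were called at both times, 66.7% (45.4 to 82.8%), beside 54.1%. Each of the 3 without a call at 30 h had none at 6 h either, and the whole list had 23.7% missing at both times. The other 4 were missing at 6 h only, where the whole list had 19.9%, and 0 of 21 were missing at 30 h only, beside 2.33%. These intervals treat the 21 regions as independent draws, which neighbours may not be. They hold the shares of the whole list, so the window was not distinguishable from it by these counts. The shares were not matched for -log10 q, by which the window ranked higher. Over the whole list the share missing at 6 h was 89.3% in the lowest decile by -log10 q and 1.32% in the highest. A missing region is one without a call, and it may still be partly open.

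Fold enrichments of separate lists were not compared with each other. The depth of reads at each summit, its pileup, was instead solved from column 7 and the -log10 p of the entry. It counts the reads stacked at that position, both replicates together. The lowest background of each list was taken as its relative depth, 63.0% of DMSO at 6 h and 80.7% at 30 h. The DMSO pileup times that share was taken as the pileup expected in a treated list at unchanged accessibility. This assumes that the lowest background follows depth alone. Scaling by the pileups of regions shared between lists gave 53.8% at 6 h and 79.4% at 30 h instead. The ratio of found to expected is given with a 95% interval from exact binomial limits, which does not cover the choice of scaling. Among kept regions, those called in the treated list, the median ratio at 6 h was 0.63 in the window (14 regions, 0.31 to 1.18) and 0.85 in the whole list. At 30 h it was 0.92 in the window (18 regions, 0.56 to 1.39) and 0.98 in the whole list. With missing regions counted as 0, the medians over all 21 were 0.49 at 6 h and 0.86 at 30 h, beside 0.41 and 0.82 over the whole list. At 6 h the pileup was below that expected at 12 of 14 kept regions, beside 65.0% of kept regions in the whole list, and at 30 h at 10 of 18, beside 52.2%. Values of kept regions were not matched for DMSO pileup or -log10 q. At 6 h 89.3% of the lowest decile by -log10 q were missing and 1.32% of the highest, so kept regions are a selected part of the list. These comparisons thus do not show that the window lost more depth than the whole list.

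**Figure D2:**
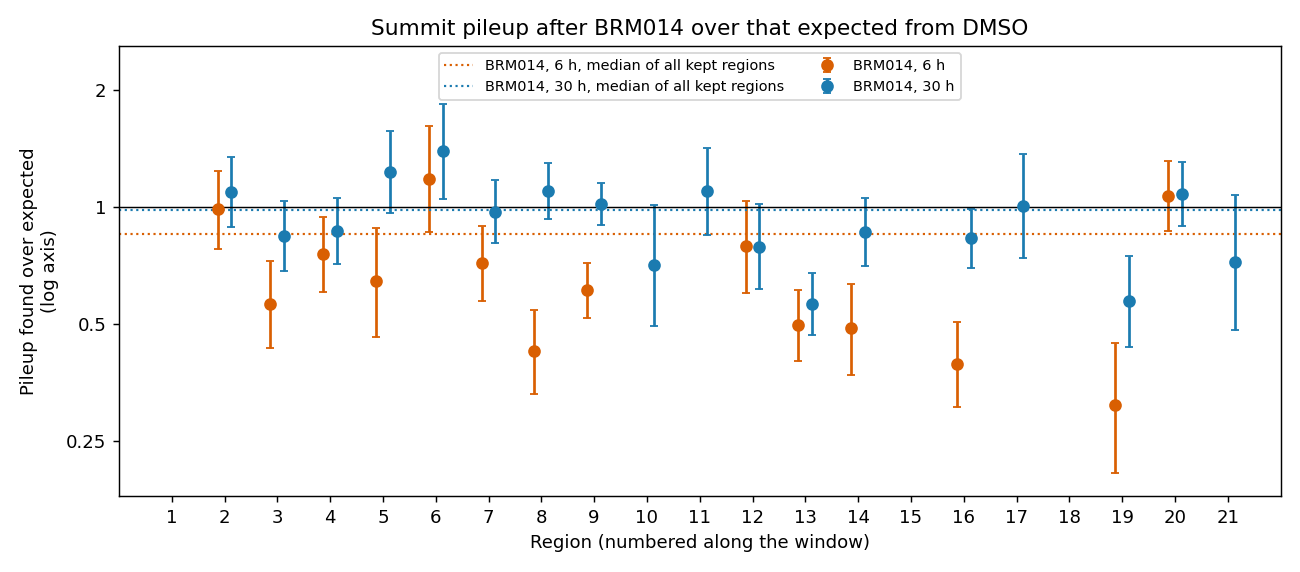
Summit pileup found over that expected from DMSO (log axis) at each kept region after 6 h and after 30 h of BRM014; bars are 95% intervals for counting error, the black line is a ratio of 1, and dotted lines are the medians of all kept regions of the whole list, 0.85 at 6 h and 0.98 at 30 h. Regions 8, 16 and 19 have the lowest ratios at 6 h, and regions 13 and 19 stand at 0.56 and 0.57 at 30 h.

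At 10 of the 14 kept regions the interval at 6 h lay below 1, beside 42.2% of kept regions in the whole list, and at 4 it included 1. It lay above 1 at 0 of 14, beside 13.3%. Deeper summits give narrower intervals, and these shares were not matched for pileup. The 14 regions had a median DMSO pileup of 240, against 129 over the whole DMSO list. With depth scaled instead by the pileups of regions shared between lists, the interval lay below 1 at 7 of 14. The intervals of regions 4, 5 and 7 then reached 1.10, 1.04 and 1.05, and those of regions 6 and 20 lay above 1. The shares of the whole list were not recounted under this scaling, so they do not stand beside the 7 of 14. The 10 regions had ratios from 0.31 to 0.76 at 6 h, and each of the 10 was narrower at 6 h than in DMSO, beside 84.4% of such regions in the whole list. At 30 h the interval lay below 1 at 3 of the 18 kept regions, beside 29.4% of the whole list, and above 1 at 1 region, beside 19.0%.

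Region 9, the most strongly enriched by -log10 q, had a summit pileup of 554 in DMSO, 213 at 6 h and 455 at 30 h. The 6 h value was 0.61 of that expected (0.52 to 0.72) and the 30 h value 1.02 (0.90 to 1.15). Its strongest summit stayed in place, displaced by 0 bp at 6 h and by 18 bp at 30 h. Its second summit, 389 bp further on in DMSO, had pileups of 109 in DMSO, 28 at 6 h and 112 at 30 h, which were 0.41 (0.26 to 0.62) and 1.27 (0.97 to 1.67) of those expected. The treated summits read for the second one lay 63 bp from it at 6 h and 44 bp from it at 30 h. At 30 h the region had a further summit, with a pileup of 92. Both DMSO summits thus had intervals below 1 at 6 h and intervals that included 1 at 30 h.

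Region 8, at chr8:109100852-109101687, showed the widest swing between the times. Its pileup was 313 in DMSO, 84 at 6 h and 278 at 30 h, or 0.43 (0.33 to 0.54) of that expected at 6 h and 1.10 (0.93 to 1.30) at 30 h. It was 836 bp wide in DMSO, 624 bp at 6 h and 746 bp at 30 h. Region 16, at chr8:109164598-109165335, had pileups of 326, 81 and 219 in DMSO, at 6 h and at 30 h. It stood at 0.39 of the expected depth at 6 h (0.31 to 0.50) and at 0.83 at 30 h (0.70 to 0.99). Its 30 h interval ended just below 1, and under the scaling by shared regions it reached 1.01.

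Region 5, at chr8:109088306-109088720, had pileups of 138 in DMSO, 56 at 6 h and 137 at 30 h, giving 0.64 (0.46 to 0.88) at 6 h and 1.23 (0.96 to 1.57) at 30 h. It was 263 bp wide at 6 h, against 415 bp in DMSO, the smallest width ratio at 6 h of the kept regions. Under the scaling by shared regions the 6 h interval of region 5 reached 1.04. Region 14, at chr8:109143342-109144074, had pileups of 241, 74 and 168 in DMSO, at 6 h and at 30 h, with ratios of 0.49 (0.37 to 0.63) and 0.86 (0.70 to 1.06). It had a pair of DMSO summits 122 bp apart with pileups of 230 and 241. At 6 h a single summit was called, 8 bp from the weaker of the pair. At 30 h there were again a pair, now with 168 near the first and 134 near the second. Read at the summit nearest to the leading DMSO summit, the 30 h ratio was 0.69 (0.55 to 0.85) in place of 0.86, below 1 with its whole interval. This change of the leading summit gave the longest displacements in the window, 114 bp at 6 h and 162 bp at 30 h. Over all kept regions the strongest summit lay a median of 14.0 bp from its DMSO position at 6 h and 13.5 bp at 30 h, beside 12.0 and 10.0 bp in the whole list.

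Regions 3, 4 and 7 had ratios below 1 at 6 h, though higher than that of region 8. Region 3 had pileups of 234 in DMSO, 83 at 6 h and 159 at 30 h, with ratios of 0.56 (0.43 to 0.73) and 0.84 (0.68 to 1.03). Region 4, at chr8:109085005-109085830, had 256, 122 and 179, with ratios of 0.76 (0.60 to 0.94) and 0.87 (0.71 to 1.05). Region 7, at chr8:109096115-109096532, had 261, 118 and 205, with ratios of 0.72 (0.57 to 0.90) and 0.97 (0.81 to 1.17). At 30 h the intervals of these 3 regions included 1. Under the scaling by shared regions those of regions 4 and 7 included 1 at 6 h as well, reaching 1.10 and 1.05.

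**Figure D3:**
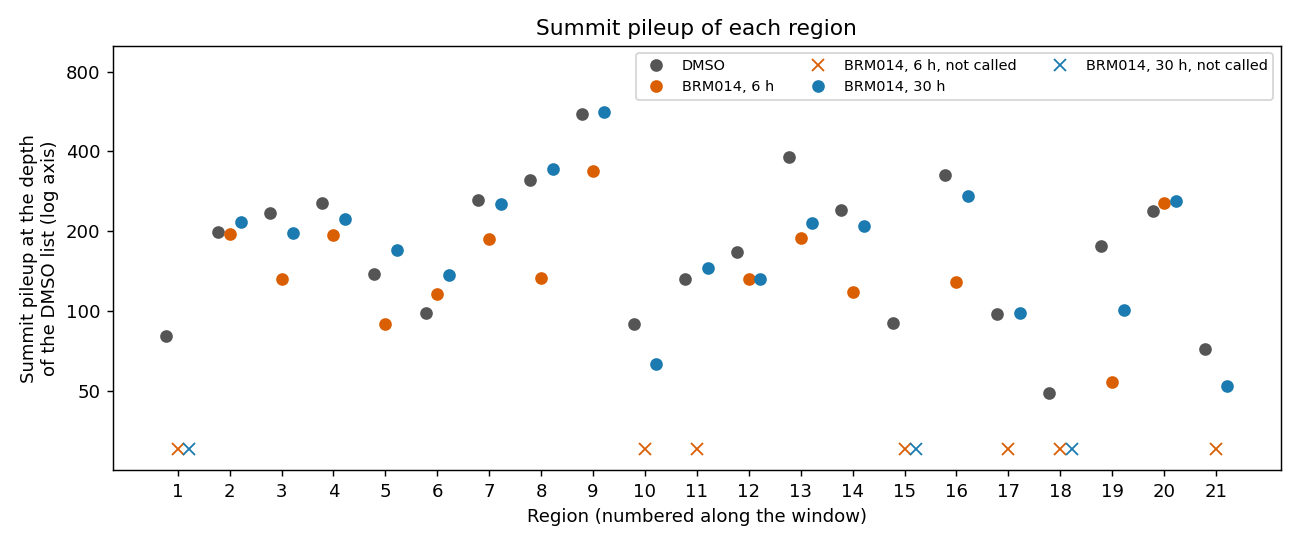
Summit pileup of each region in DMSO, after 6 h and after 30 h of BRM014, each divided by the depth of its list relative to DMSO (log axis); crosses at the foot mark regions not called and carry no value. The 7 regions missing at 6 h had DMSO pileups of 49 to 132, and the points of regions 2 and 20 lie close together.

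Regions 13 and 19 stayed low at both times. Region 13, at chr8:109138572-109138984, had the second highest pileup of the window in DMSO, 380, against 119 at 6 h and 173 at 30 h. Its ratios were 0.50 (0.40 to 0.61) and 0.56 (0.47 to 0.68), while its width barely moved, at 413 bp in DMSO, 398 bp at 6 h and 393 bp at 30 h. Region 19, which had the highest fold enrichment of the window in DMSO, had pileups of 175 in DMSO, 34 at 6 h and 81 at 30 h. Its ratio of 0.31 at 6 h (0.21 to 0.45) was the lowest of the kept regions, and at 30 h it was 0.57 (0.44 to 0.75). Together with region 16 these were the 3 regions whose intervals lay below 1 at both times. Under the scaling by shared regions 2 were left, without region 16, and with the nearest summit there were 4, with region 14 added. The share of the whole list with intervals below 1 at both times was not counted, so these regions cannot be set against it.

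At regions 2, 6, 12 and 20 the interval at 6 h included 1, which does not show that their depth was unchanged. Region 20 had a leading summit with pileups of 239 in DMSO, 161 at 6 h and 209 at 30 h, with ratios of 1.07 (0.87 to 1.31) and 1.08 (0.90 to 1.31). Its other summits had 121 and 84 in DMSO, 79 and 68 at 6 h, and 122 and 69 at 30 h, with ratios from 1.02 to 1.29. Region 2 had pileups of 198 in DMSO, 123 at 6 h and 175 at 30 h, with ratios of 0.99 (0.78 to 1.24) and 1.09 (0.89 to 1.35). Under the scaling by shared regions its 6 h ratio was 1.16 in place of 0.99, so its side of 1 at 6 h depends on the scaling.

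Region 6, at chr8:109094287-109094727, had pileups of 98, 73 and 110 in DMSO, at 6 h and at 30 h. Its ratio was 1.18 at 6 h (0.86 to 1.62) and 1.39 at 30 h (1.05 to 1.84), the highest of the kept regions at both times. Region 12, at chr8:109135996-109136425, had 166, 83 and 106, with a ratio of 0.79 at both times (0.60 to 1.04 at 6 h and 0.61 to 1.02 at 30 h). Regions 2, 20 and 6 were also the kept regions that were wider at 6 h than in DMSO, with width ratios of 1.22, 1.14 and 1.11. The other 11 of 14 kept regions were narrower at 6 h, beside 75.3% in the whole list, with the smallest ratios at regions 5, 8 and 14 (0.63, 0.75 and 0.77). At 30 h 16 of 18 were narrower, beside 66.9%. The median width ratio in the window was 0.93 at 6 h and 0.90 at 30 h, beside 0.91 and 0.95 in the whole list.

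**Figure D4:**
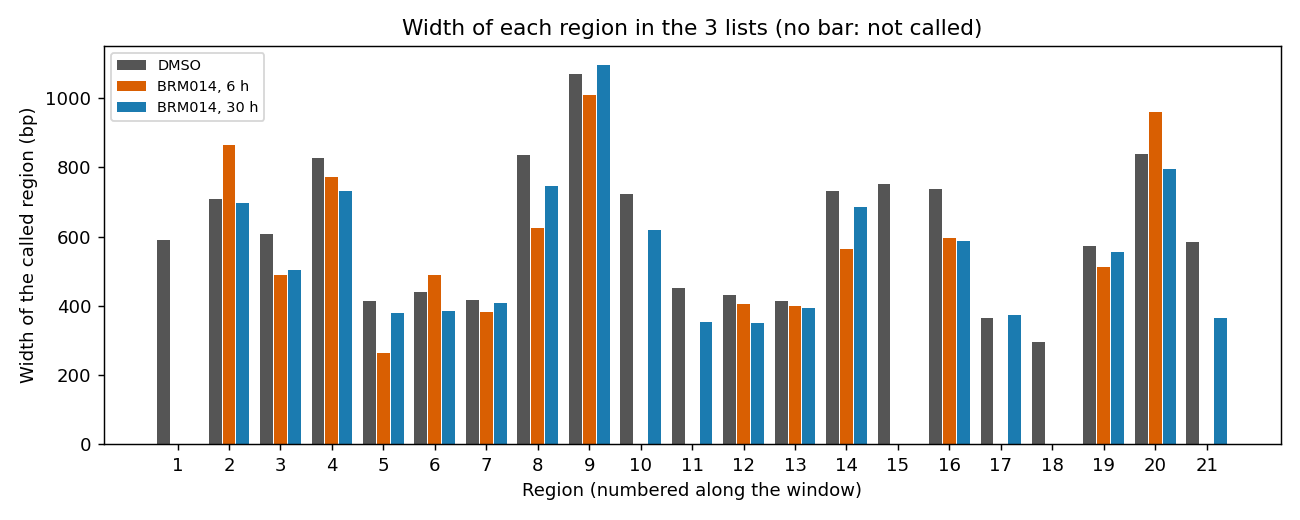
Width in bp of each region in DMSO, after 6 h and after 30 h of BRM014 (bars from 0; no bar where the region was not called). Region 9 is the widest in each list, at 1070, 1010 and 1096 bp, and regions 2, 6 and 20 are the ones wider at 6 h than in DMSO.

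The treated lists were also set against each other at the 14 regions called in all 3 lists. The pileup at 30 h, scaled to the depth of the 6 h list, was above that at 6 h at 13 of 14 regions, beside 70.2% of such regions in the whole list. The median ratio of 30 h over 6 h was 1.43 in the window (0.997 to 2.58) and 1.18 in the whole list. The interval lay above 1 at 8 regions, beside 37.5% of the whole list, and below 1 at 0, beside 8.82%. These shares, too, were not matched for pileup. Under the scaling by shared regions the 30 h pileup was higher at 9 of 14, with regions 2, 4, 13 and 20 turning to 0.96, 0.99, 0.98 and 0.88. The interval then lay above 1 at 6, without regions 3 and 7. Here too the shares of the whole list were not recounted. Region 8 had the highest ratio, 2.58 (2.02 to 3.34), followed by region 16 with 2.11 (1.63 to 2.76), region 5 with 1.91 (1.39 to 2.65) and region 19 with 1.86 (1.23 to 2.86). Region 13 stood at 1.13 (0.89 to 1.45), region 20 at 1.01 (0.82 to 1.25) and region 12 at 0.997 (0.74 to 1.34).

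The 7 DMSO regions missing at 6 h were on the whole the shallower ones, with DMSO pileups of 49 to 132, whereas the 14 called at 6 h had 98 to 554. Of these 7, regions 10, 11, 17 and 21 were called at 30 h. Region 11, at chr8:109132148-109132598, had a pileup of 117 at 30 h, against 132 in DMSO, 1.10 of that expected (0.85 to 1.42). At 6 h it was not called, with an expected pileup of 83.2. Region 6 was called there, with an expected pileup of 61.7 and a found one of 73. The local background, the read depth around the summit, was 19.8 in DMSO at region 11 and 13.8 at region 6. Expected pileups alone therefore do not compare these regions, and the reason for the missing call was not tested. Region 17, at chr8:109167055-109167418, had 79 at 30 h, against 97 in DMSO, a ratio of 1.01 (0.74 to 1.37). Region 10, at chr8:109129338-109130060, had 51 at 30 h, against 89 in DMSO, a ratio of 0.71 (0.49 to 1.01). Region 21, at chr8:109225035-109225618, had 42 at 30 h, against 72 in DMSO, a ratio of 0.72 (0.48 to 1.07), and its width was 366 bp at 30 h, against 584 bp in DMSO. In the deciles of the DMSO list by -log10 q to which these regions belong, 60.9% or 80.9% were missing at 6 h.

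Regions 1, 15 and 18 were missing at both times. Region 1, at chr8:109024688-109025277, had a DMSO fold enrichment of 18.3 and a pileup of 80, for which 50.4 was expected at 6 h and 64.6 at 30 h. Region 15, at chr8:109156492-109157244, was 753 bp wide in DMSO with a pileup of 90 and expected pileups of 56.7 and 72.7. For both regions the expected values lay above the lowest pileup of a called region in the window, 34 at 6 h and 42 at 30 h. For region 18, at chr8:109171320-109171613, with 294 bp the narrowest of the 21 and with a DMSO pileup of 49, the expected 30.9 at 6 h and 39.6 at 30 h lay below those lowest values. Those values are no limit of detection, since the whole 6 h and 30 h lists held regions with pileups down to 7. They came from region 19 at 6 h and region 21 at 30 h, with low local backgrounds of 2.76 and 3.15. In DMSO the local background was 3.435 at region 1 and 8.79 at region 15. The expected pileups thus do not show that regions 1 and 15 would have been called. The share missing at 30 h in the same decile of the DMSO list by -log10 q was 25.8% for region 1, 34.6% for region 15 and 68.0% for region 18.

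A single new region was called after treatment, at both times, in the stretch of 15856 bp between regions 9 and 10. It ran over chr8:109127035-109127427 at 6 h and chr8:109127047-109127412 at 30 h, 1910 and 1925 bp from region 10, with summits 22 bp apart. It was weak in both lists, with a fold enrichment of 6.55 and a pileup of 44 at 6 h and of 5.92 and 49 at 30 h. At the depth of the DMSO list these pileups correspond to 69.8 and 60.7, above the lowest pileup of a called DMSO region in the window, 49. A call also depends on the local background, so this does not show that the region would have been called in DMSO. Unscaled for depth, that background was 5.865 at 6 h and 7.44 at 30 h, and 6.89 at the DMSO region with 49. The lists had 63.0% and 80.7% of the DMSO depth, so at DMSO depth both treated backgrounds would be higher than printed. They are therefore not like for like with 6.89, nor with the scaled pileups. The scaled pileup at 30 h was 0.87 of that at 6 h (0.57 to 1.34). It made up 1 of 15 regions at 6 h, 6.67% (1.19 to 29.8%), beside 7.42% new in the whole list, and 1 of 19 at 30 h, 5.26% (0.935 to 24.6%), beside 17.9%.

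The local background is the read depth that the caller estimated around each summit. It played no part in setting the window by position. Each call is made against it, however, so its values are not independent of which regions were called and kept. In DMSO it was a median of 4.39 times the lowest background of the list in the window and 2.72 times in the whole list. Along the window it was lowest at the edges, with 1.02 times at region 1 and the lowest background of the list itself at region 21, and highest in the interior, with 8.37 at region 13, 7.67 at region 12 and 7.14 at region 9. At 6 h the local background of kept regions was a median of 0.71 of that expected, beside 0.84 in the whole list, and at 30 h 1.01, beside 0.98. Region 8 had the lowest value at 6 h, 0.54, and regions 2 and 20 were the ones above 1, with 1.06 and 1.14. At 30 h the values at the neighbouring regions 12 and 13 were 0.73 and 0.71, the lowest of the window. Backgrounds of neighbours a few kb apart can share reads, so these values are not independent of each other, nor of the summits inside them.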

How the data were processed

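ATAC-seq was carried out on 6 samples of NMuMG cells, 2 per group. Peaks were called with MACS2 2.1.2 on the build mm9, per the submitters' processing notes. Per the labels, each list came from both replicates of a group. The extraction protocol also mentions TGFβ, which no sample label carries. The aligner, filters, transposase offset and caller options are not given in the sources used here.

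The authors deposited per entry a score, a fold enrichment (ratio) at the summit, a -log10 p, a -log10 q and the summit offset. Overlapping entries were merged into regions with the highest values of their entries. A DMSO region was followed by an overlap of at least 1 bp, and the treated region with the most shared bases gave its width. For each entry the integer pileup and the background that give its fold enrichment (1 added to both) and its Poisson p were solved, assuming the caller's defaults. They returned the deposited -log10 p to within 0.001 in 100% of entries. As a measure of depth the lowest background of each list (3.37 in DMSO, 2.12 at 6 h, 2.72 at 30 h) was used. Read totals were not analysed here. Shares have 95% Wilson intervals, and pileup ratios have 95% Clopper-Pearson intervals. Reads carry no molecular identifiers, and the intervals cover counting error only.

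The window, its members and the lists of values named were chosen with earlier results of these data known. The regions given in full were to be the 5 DMSO regions with the highest fold enrichment, those missing at 30 h, the new ones, the 3 smallest and the 3 largest width ratios at 6 h, and the region with the most summits. The other regions were named after their values were seen. The planned list of adherens junction genes and the promoter motifs were not used, because no mm9 annotation or genome was at hand. The overlap and pileup steps were tested on simulated data. Python 3.11.15, numpy 2.4.6, pandas 2.3.3, scipy 1.17.1 and matplotlib 3.10.9 were used.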

Additional observations from a re-analysis of the deposited data

Results flagged for a closer look

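Kept regions 2, 5, 8 and 9 had a summit pileup below that expected from DMSO at 6 h and above it at 30 h, by the ratios themselves. At 30 h the interval of each of the 4 included 1, so none was shown to lie above DMSO. The difference was not tested, since there was 1 list per time. How often this pattern occurred in the whole list was not counted. The scaled pileup at 30 h over that at 6 h was 1.11 at region 2 (95% counting interval 0.88 to 1.41), 1.91 at region 5, 2.58 at region 8 and 1.67 at region 9. At region 2 the 6 h interval included 1 as well, and with depth scaled by shared regions its ratio of 30 h over 6 h was 0.96.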

How the results depend on the processing

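Alternatives were an overlap of at least 50%, the summit rule, the 500 bp rule and a -log10 q of at least 5. These and the count of every entry left each count of missing and new regions within 1.5 times of the value reported. The median width ratio under them was 0.93 at 6 h and 0.90 to 0.91 at 30 h. With 25922 regions in every list, which removes the weakest DMSO regions by construction, 11 DMSO regions were left in the window, of which 2 were missing at 6 h and 1 at both times, and 6 regions were new at 6 h. At a score of 1000 the new region was dropped, with 0 new at 6 h and 0 at 30 h. With the window widened by 50 kb on each side, 6 of 26 DMSO regions were missing at 30 h and 5 at both times, and 2 regions were new at 30 h. The median pileup ratio, with missing regions as 0, was 0.49 at 6 h and 0.86 at 30 h. Under the alternatives run for it, kept regions only among them, it was 0.49 to 0.63 at 6 h and 0.84 to 0.92 at 30 h. Scaling depth by the pileups of shared regions (53.8% of DMSO at 6 h and 79.4% at 30 h) multiplied the ratios by 1.17 at 6 h and 1.02 at 30 h. It left 11 of 14 kept regions below 1 at 6 h in place of 12, with region 2 turning to 1.16, and 10 of 18 at 30 h. The counts of intervals under this scaling and with the nearest summit were chosen after seeing the data. Kept regions with intervals below 1 numbered 7 at 6 h, 2 at 30 h and 2 in both lists under this scaling, and 10, 4 and 4 with the nearest summit, against 10, 3 and 3 as reported. No share of the whole list is given here under any of the alternatives. The counts of the window under them therefore cannot be set against the whole list. No paired analysis was possible because the replicates of a group were pooled in its list, so none could be left out in turn. The depth below which a region could not be called was not determined.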
